A study of Homo sapiens with 2 samples.

Results

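The nuclear-encoded subunits of respiratory complexes II, III, IV and V, together with cytochrome c, were compared between HT-29 monolayer cells and HT-29 spheroids. Members were all genes with a probe set of their own that are SDHA, SDHC, SDHD, CYC1 or CYCS or whose symbol starts with UQCR, COX4 to COX8 or ATP5, pseudogenes excepted. This gave 46 of the 19775 genes with a probe set of their own on the array. They comprised 3 genes of complex II, 7 of complex III, cytochrome c, 17 of complex IV and 18 of complex V, spread over 21 chromosomes. SDHB, UQCRFS1 and UQCRH, which also belong to these complexes, were not analysed here, because no probe set is paired with any of them singly.

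HT-29 is an established human colorectal adenocarcinoma line. Monolayer cells were grown on treated plates in DMEM/F-12 with 10% fetal bovine serum. Spheroids were raised from the same line on low-adhesion plates and harvested on day 5, in stem cell media (DMEM/F-12 with B27 and the growth factors EGF and FGF), so that the effects of the medium and of the growth form cannot be told apart. Both media contained an antibiotic-antimycotic mix. Each condition is represented by 1 Affymetrix Human Genome U133 Plus 2.0 array, although the methods speak of duplicates, so every difference given here is between 2 arrays, with no replicate error and no test. In bulk RNA, fewer cells of a type and less RNA per cell cannot be told apart.

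The respiratory chain passes electrons from substrates to oxygen across the inner mitochondrial membrane. Complex II takes them from succinate, complex III hands them from ubiquinol to cytochrome c, complex IV gives them to oxygen, and complex V, the ATP synthase, uses the proton gradient that complexes I, III and IV build to make ATP. All subunits of complex II and cytochrome c are encoded in the nucleus, whereas complexes III, IV and V also hold subunits made from mitochondrial DNA, so the genes described here depend on a second genome for a working complex.

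The values are MAS5 signals, which are intensities on a linear scale, as deposited. A signal under 62.7, the median of all signals on both arrays, was set to that floor before log2 was taken, and differences are spheroid minus monolayer. The brightest probe set stood for each gene. Levels were not set against each other between genes, because probe sets differ in how brightly they report. Over the 13183 genes measured above the floor on at least 1 array the median log2 difference was -0.05. All 18 probe sets of the hybridisation spike-ins, control RNAs that are normally added in equal amounts, were lower on the spheroid array, by a mean log2 difference of -0.25, and all 24 probe sets of the labelling spike-ins were lower at a mean of -0.42. Scaling to the hybridisation spike-ins moved the median of all genes up by 0.23 to 0.18. Where that turns a direction is said for the members, but not for each gene of the other lists. As a sign of RNA quality, the 3' over 5' control ratio of ACTB was 4.07 in monolayer cells and 3.65 in spheroids. The same ratio of GAPDH was 1.05 and 1.07. Of 10 epithelial markers EPCAM, CDH1, KRT8, KRT18 and KRT20 were over the floor on both arrays, VIL1 and CDX2 on 1 array, and CDH17, CDX1 and LGALS4 on neither. These 3 are known genes of intestinal epithelium, so not all markers of the labelled colon line were present, and the cells are called HT-29 by their label. Of 14 measurable markers of fibroblasts, leukocytes, endothelium and muscle 10 were under the floor on both arrays, COL1A1 and PECAM1 were above it on both, and the summed signal was 1933 in monolayer and 2415 in spheroids, most of it COL1A1 at 1370 and 1972. Their part in the differences was not tested.

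Promoter stretches are shown for 6 lower genes chosen because they hold a known core, for 3 lower genes that hold none and for COX7B, the gene with the largest difference above 0. Many respiratory genes are known to carry sites for NRF1 and for the ETS factor GABP close to the start. Of the 46 genes 36 have an entry in the RefSeq promoter table of GRCh38.p14, with 250 bases before and 50 after the start. Those without an entry include SDHC and CYC1, which were lower, and UQCRB and COX6C, which were higher. Printed are the 120 bases before the start, 5′ to 3′ on the strand of the gene, with capitals for the NRF1 core CGCATGCG, the ETS core CCGGAAG and the YY1 core AAGATGGC, each searched on both strands (CTTCCGG is the ETS core on the other strand).
SDHD, chr11:112086753-112086872, plus strand: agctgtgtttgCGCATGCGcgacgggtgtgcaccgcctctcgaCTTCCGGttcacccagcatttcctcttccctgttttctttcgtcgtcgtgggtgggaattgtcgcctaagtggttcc
UQCR11, chr19:1605463-1605582, minus strand: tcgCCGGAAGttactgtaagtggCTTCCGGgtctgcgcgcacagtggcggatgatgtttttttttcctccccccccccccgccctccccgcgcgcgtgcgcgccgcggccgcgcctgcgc
COX5B, chr2:97645942-97646061, plus strand: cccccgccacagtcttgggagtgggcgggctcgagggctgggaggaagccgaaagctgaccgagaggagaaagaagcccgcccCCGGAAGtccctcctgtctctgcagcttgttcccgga
COX6A1, chr12:120437993-120438112, plus strand: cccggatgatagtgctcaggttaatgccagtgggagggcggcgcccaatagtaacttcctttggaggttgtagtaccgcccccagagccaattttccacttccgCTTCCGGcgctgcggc
ATP5MC2, chr12:53676084-53676203, minus strand: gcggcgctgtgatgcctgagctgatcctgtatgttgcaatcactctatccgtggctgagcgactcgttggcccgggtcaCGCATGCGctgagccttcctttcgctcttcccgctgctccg
ATP5PF, chr21:25735055-25735174, minus strand: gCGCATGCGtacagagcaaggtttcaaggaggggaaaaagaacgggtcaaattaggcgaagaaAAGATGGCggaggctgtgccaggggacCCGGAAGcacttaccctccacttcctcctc
UQCRC2, chr16:21953241-21953360, plus strand: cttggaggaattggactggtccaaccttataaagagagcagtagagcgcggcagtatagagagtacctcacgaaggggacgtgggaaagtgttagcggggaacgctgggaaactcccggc
COX7A2L, chr2:42361218-42361337, minus strand: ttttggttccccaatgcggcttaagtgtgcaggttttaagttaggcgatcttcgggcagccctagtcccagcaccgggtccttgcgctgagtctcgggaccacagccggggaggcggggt
ATP5MC1, chr17:48892667-48892786, plus strand: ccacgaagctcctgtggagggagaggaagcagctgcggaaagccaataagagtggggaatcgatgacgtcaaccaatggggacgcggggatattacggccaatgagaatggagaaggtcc
COX7B, chrX:77899348-77899467, plus strand: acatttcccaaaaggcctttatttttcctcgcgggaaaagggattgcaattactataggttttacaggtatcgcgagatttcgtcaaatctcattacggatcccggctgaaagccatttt
UQCRC2, COX7A2L and ATP5MC1, with log2 differences of -0.48, -0.49 and -0.46, hold none of the 3 cores in the whole window, and neither does COX7B at 0.26. Lower genes were thus found with and without a core.

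The NRF1 core was found in 6 of 36 windows (16.7%), against 2.88% of the 15842 windows of protein-coding genes, and the ETS core in 13 of 36 (36.1%) against 14.2%. The YY1 core was in 4 of 36 (11.1%) against 3.91%. At least 1 of the NRF1 and ETS cores was present in 15 of 36 windows (41.7%), in 28.1% of 32 complex I windows and in 16.4% of all. The SP1 core GGGCGG, at 55.6% of these genes and 58.5% of all, and the letters TATAAA, at 11.1% and 9.63%, were about as frequent as elsewhere. Of the 32 genes with a window that were over the floor on both arrays, all 13 with an ETS core were lower in spheroids, with a median log2 difference of -0.28 and a range of -0.59 to -0.01. Among the 19 without it 15 were lower, with a median of -0.22 and a range of -0.62 to 0.26. All 6 genes with the NRF1 core were lower as well, from -0.62 to -0.10, as were 22 of the 26 without. Of the 4 genes with the YY1 core 3 were lower, with a median of -0.16 and a range of -0.55 to 0.11. The higher one is ATP5PB. Among the 28 without it 25 were lower, with a median of -0.26. On the spike-in scale ATP5MG, ATP5MK, COX6B1 and UQCRQ, which hold the ETS core, and ATP5F1C, which holds the NRF1 core, came out at or above 0. So did ATP5PO, which holds the YY1 core. The ranges of holders and non-holders overlapped for each core, and a match of letters is a description of the window, not of a bound factor.

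Most of the genes had slightly lower signals on the spheroid array. Of the 46 genes 39 were over the floor on both arrays, 3 on the monolayer array alone and 4 on neither. Among the 42 measured genes 36 were lower and 6 higher, where 54.8% of all measured genes were lower. None was at least 2-fold higher (2.53% of all genes) and 1, SDHC, was at least 2-fold lower (3.08%). At a smaller threshold, a log2 difference of 0.32 in size, 18 of 42 were lower (42.9%, against 25.8% of all genes) and 0 were higher (against 20.5%). The median log2 difference was -0.28, which is -0.22 from the median of all genes, with an SD of 0.27 between the genes and a range of -1.03 to 0.26.

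Bright genes varied less on these arrays, with an SD of the log2 difference of 0.35 against 0.51 over all measured genes, so the same counts are given for the 2093 genes whose mean signal was at least 3189, that of the dimmest of the 39 genes over the floor on both arrays. Of those bright genes 58% were lower, 17.5% lower by 0.32 or more and 12.6% higher by as much, with a median log2 difference of -0.06. For the 39 genes themselves 33 were lower, 16 lower by 0.32 or more (41.0%), and the median was -0.27. On the scale of the hybridisation spike-ins 16 of the 42 genes (38.1%) instead of 6 (14.3%) came out higher and their median was -0.03, at -0.21 from the median of all genes. Across the deposited scale and 4 other scalings, none of them to the labelling spike-ins (mean -0.42), 26 genes were lower and 5 higher each time. The other 11 changed direction. The 26 include COX4I2, COX6A2 and COX8C, whose direction on the deposited scale is fixed by the floor.

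**Figure D1:**
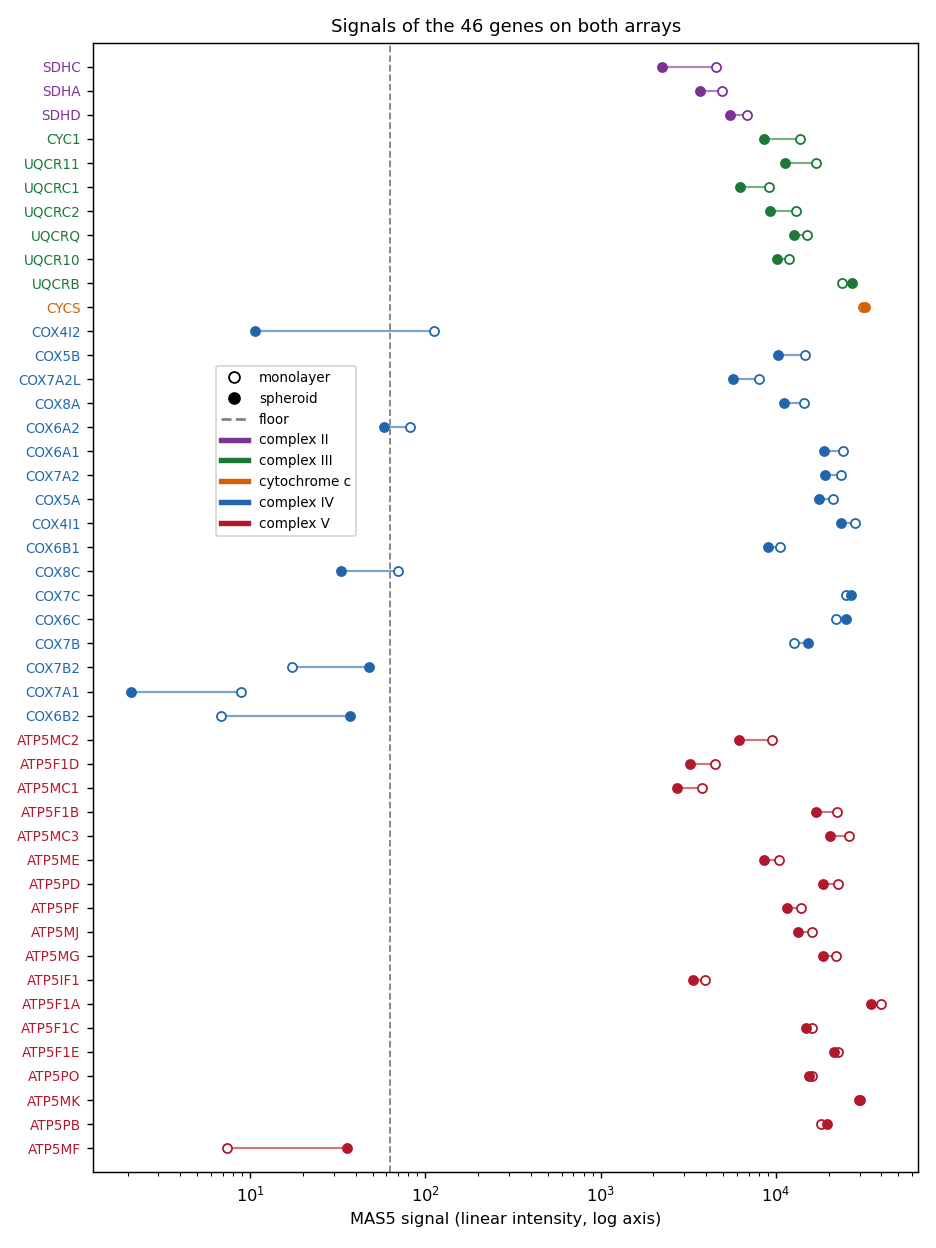
MAS5 signals of the 46 genes on the monolayer array (open circles) and the spheroid array (filled circles), on a log axis, coloured by complex; the dashed line is the floor of 62.7. In 36 of the 42 genes measured the filled circle lies to the left of the open one, and 4 genes lie left of the floor on both arrays; positions of different genes are not to be compared, and scaled to the hybridisation spike-ins 26 would lie to the left.

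Complex II, succinate dehydrogenase, links the citric acid cycle to the chain. All 3 of its measured genes were lower by 0.32 or more in spheroids, with a median log2 difference of -0.41, and all 3 stayed lower when scaled to the spike-ins, at a median of -0.16. SDHC, one of the pair of membrane anchors that bind ubiquinone, measured 4553 in monolayer cells and 2234 in spheroids, which is 2.04-fold lower. SDHA, the flavoprotein that oxidises succinate, had 4911 and 3708, a log2 difference of -0.41. SDHD, the other anchor, had 6881 and 5456, a log2 difference of -0.33.

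The SDHC value depends on the probe set. It has 7 probe sets over the floor on both arrays, 6 of them lower and 1 higher in spheroids. Their log2 differences ran from -1.03 for the brightest to 0.17, with an SD of 0.44. The median over the 7 was -0.53, and without probe sets whose names end in _x_at, which can also bind related transcripts and include the only one of SDHA, the median of complex II was -0.68. SDHD has 1 usable probe set and SDHA 1. A dimmer probe set that SDHA shares with 3 of its pseudogene copies had 483 and 551, a log2 difference of 0.19.

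Complex III had the lowest median of the 4 complexes on the deposited scale, although complex II was lower without its _x_at probe sets. That value rests on SDHC at -1.03 and SDHD at -0.33 alone. Of its 7 genes 6 were lower and 4 lower by 0.32 or more, with a median log2 difference of -0.48, which was -0.23 on the spike-in scale, where 4 were lower. CYC1, the cytochrome c1 that passes electrons on to cytochrome c, had 13729.6 in monolayer and 8581 in spheroids, 1.60-fold lower. UQCRC1 and UQCRC2, the core proteins that face the matrix, had log2 differences of -0.55 (9159 and 6245) and -0.48 (12998 and 9312). Among the small subunits UQCR11 had 16940.1 and 11280.2, a log2 difference of -0.59.

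The other small subunits of complex III lay nearer to 0. UQCRQ had a log2 difference of -0.24 and UQCR10 of -0.22, and both were at or just above 0 when scaled to the spike-ins, at 0.01 and 0.02. UQCRB, the subunit near the ubiquinone site, was the one gene of complex III that was higher, at 23952 in monolayer and 27237 in spheroids (log2 difference 0.19). All 4 UQCRB probe sets were higher in spheroids, from 0.19 to 0.59. UQCRB and CYC1 thus marked the ends of complex III, from -0.68 to 0.19. A probe set shared by UQCRH and its copy UQCRHL had 19072 and 19769, a log2 difference of 0.05.

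Cytochrome c and cytochrome c1, which carry electrons one after the other, did not go together on these arrays. CYCS, the mobile carrier between complexes III and IV that also takes part in apoptosis, had 31206 in monolayer cells and 32448 in spheroids, a difference of 0.06, against -0.68 for CYC1. CYCS has a pair of dimmer probe sets that were further apart, with 154 and 292 (log2 difference 0.92) and with 113 and 346 (1.62). The median over its 3 probe sets was therefore 0.92. CYCS has 45 pseudogenes by symbol, more than any other of the 46 genes, and whether their transcripts contribute to its signals was not tested. CYCS was just below 0 on one of the other scalings, whereas CYC1 was lower on each.

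**Figure D2:**
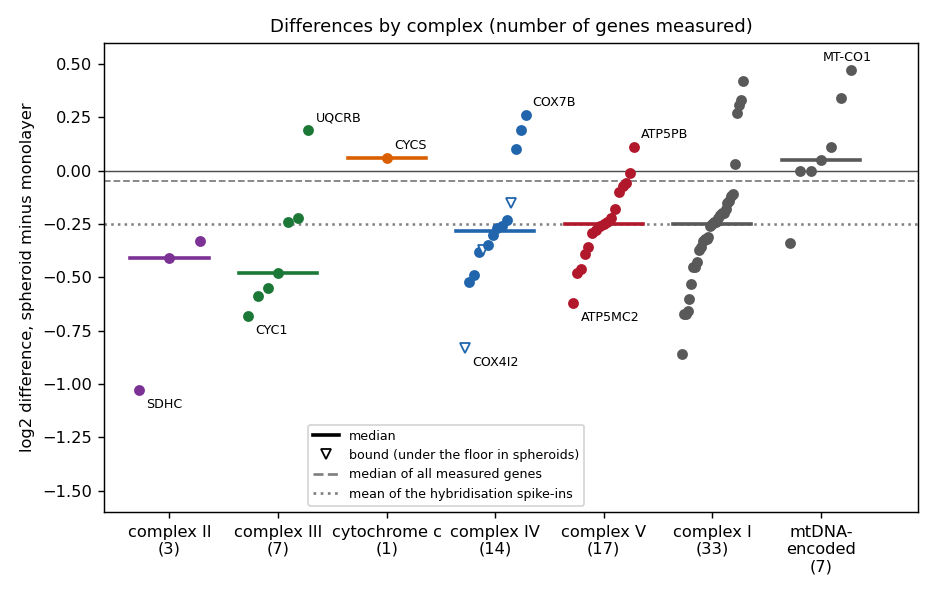
Log2 difference (spheroid minus monolayer) of each measured gene by complex, with complex I subunits and mitochondrially encoded subunits for comparison; bars are medians, open triangles are bounds, and the dashed and dotted lines are the median of all measured genes and the mean of the hybridisation spike-ins. Medians were -0.41, -0.48, -0.29 and -0.25 for complexes II, III, IV and V, and 0.05 for the mitochondrially encoded genes; taking the dotted line as 0 puts 16 of the 42 genes above it.

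Complex IV, cytochrome c oxidase, had 14 measured genes, of which 11 were lower, 6 lower by 0.32 or more and 3 higher. Its median log2 difference was -0.29, and -0.04 on the spike-in scale. The lower genes include COX4I2, COX6A2 and COX8C, which were over the floor on the monolayer array alone. These could only come out lower, and COX4I2 and COX6A2 are among the 6. With the floor at 386, which leaves these genes out, the median of complex IV was -0.27. COX5B, a subunit bound to the matrix side, had 14730.5 in monolayer cells and 10243 in spheroids, a difference of -0.52, and all 4 of its probe sets were lower, from -0.83 to -0.46. COX7A2L, which joins complexes III and IV into supercomplexes, had 7966 and 5663, a log2 difference of -0.49. COX8A had 14518 and 11136 (-0.38) and COX6A1 24046 and 18918 (-0.35). Both are small membrane subunits.

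The 3 genes of complex IV that were higher were also small subunits. COX7B had 12693 in monolayer and 15224 in spheroids (log2 difference 0.26), COX6C 22097 and 25160 (0.19), and COX7C 24969 and 26699 (0.10). None of them reached 0.32. COX7B was higher with both of its probe sets, whereas COX7C had 1 probe set at 0.10, 1 at -0.02 and 1 at -0.36, so its direction depends on the probe set. Among the lower genes over the floor on both arrays COX6B1 was nearest to 0, at -0.23, which was 0.01 when scaled to the spike-ins.

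Several complex IV subunits exist as a form used in most tissues and a form used in heart and muscle, lung or testis. The widely used forms were those with signals far above the floor. COX4I1 had 28351 and 23640.5 (log2 difference -0.26), while COX4I2, the form that lung and cells at low oxygen are known for, had 112 in monolayer and 10.6 in spheroids, under the floor and at least 1.78-fold lower. COX6A2, of heart and muscle, had 81.3 and 58.2, at least 1.30-fold lower, and COX8C 69.7 and 33.1, at least 1.11-fold lower. COX7A1, of heart and muscle, COX6B2, of testis, and COX7B2 were under the floor on both arrays, with 8.85 and 2.08, 6.80 and 37.0, and 17.3 and 47.8. Signals that close to the floor carry no order among themselves. COX7A2, the counterpart of COX7A1, had 23398 and 18986, a log2 difference of -0.30, and COX5A, which has no tissue form, had 21296 and 17636.5 (-0.27).

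Dim probe sets of COX4I1 and COX7B went the other way or further than the bright ones. One of COX4I1 had 194 in monolayer cells and 409 in spheroids, a difference of 1.08, where its 2 bright ones were at -0.26 and -0.35. One of COX7B had 154 and 325, also 1.08. Together with CYCS these are the 3 genes that passed 2-fold higher when the probe set with the largest difference stood for the gene.

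Complex V had 17 measured genes, of which 16 were lower and 5 lower by 0.32 or more. The median log2 difference was -0.25, and it was 0.00 when scaled to the hybridisation spike-ins. The c ring, the rotor in the membrane that protons turn, is built of copies of a single protein. That protein is made from 3 genes with different leader sequences, and all 3 genes were lower by 0.32 or more. ATP5MC2 had 9450.3 in monolayer and 6154 in spheroids (log2 difference -0.62), ATP5MC1 3776 and 2742 (-0.46), and ATP5MC3 26092 and 20400 (-0.36). All 3 stayed lower on the spike-in scale, at -0.37, -0.22 and -0.11. ATP5MC3 has a second bright probe set at -0.35 and a dim one at 0.05.

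The F1 head and the stalk that turns in it were less uniform. ATP5F1B, the catalytic beta subunit, had 22177 and 16893, a log2 difference of -0.39, and ATP5F1A, the alpha subunit, 39760.4 and 35066, a difference of -0.18. In the central stalk ATP5F1D had 4489 and 3216 (-0.48), whereas ATP5F1C was at -0.10 and ATP5F1E at -0.07. ATP5F1A, ATP5F1C and ATP5F1E were higher when scaled to the spike-ins, at 0.06, 0.14 and 0.18.

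The peripheral stalk, which holds the head still, and the accessory subunits of the membrane part lay between -0.29 and 0.11. ATP5PB, the b subunit of that stalk, was the only gene of complex V that was higher, at 18165 in monolayer and 19593 in spheroids (log2 difference 0.11), and its dim probe set was higher too, at 0.79. ATP5PO, the subunit that ties stalk and head together, was at -0.06 (0.19 on the spike-in scale), ATP5PF at -0.26 and ATP5PD at -0.28. Of the accessory subunits ATP5ME had 10440.5 and 8523 (-0.29), ATP5MJ 16012 and 13460 (-0.25), and ATP5MG 22026 and 18600.1 (-0.24). ATP5MK was nearest to 0, at 30172 and 29915 (-0.01). The probe set of ATP5MF alone was under the floor on both arrays, and a bright one that it shares with the RNA gene ARMC2-AS1 had 9452 and 6622, a log2 difference of -0.51.

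ATP5IF1, the inhibitor that keeps the synthase from running backwards when oxygen is short, had 3934 in monolayer and 3379 in spheroids. This is a log2 difference of -0.22, close to the median of the complex, and 0.03 on the spike-in scale. Its 3 probe sets lay at -0.22, -0.30 and 0.18.

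Probe sets of one gene did not always give the same difference. The 46 genes have 93 probe sets, of which 78 were over the floor on both arrays, 59 lower and 19 higher in spheroids. Between probe sets of one gene the log2 difference had an SD of 0.39 for these genes and 0.41 over 5506 genes. Of the 21 genes with at least 2 such probe sets 7 had probe sets on both sides of 0, namely SDHC, COX4I1, COX7C, ATP5F1C, ATP5IF1, ATP5MC3 and ATP5PD. Among the 39 probe sets that did not stand for their gene, the 21 with a mean signal of 1024 or more had a median of -0.30 and 2 of them were higher. The 18 dimmer ones had a median of 0.16 and 11 were higher. Over all named probe sets the median ran only from 0.01 at signals of 64 to 256 to -0.08 at 8192 to 16384.

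**Figure D3:**
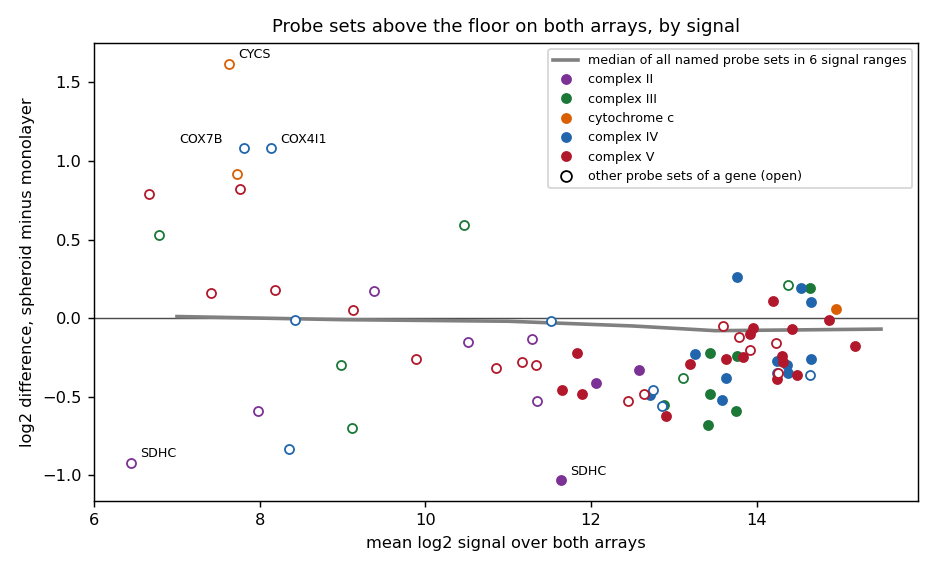
Log2 difference against mean log2 signal for the 78 probe sets over the floor on both arrays; filled circles stand for their gene, open circles are other probe sets of the same genes, and the grey line is the median of all named probe sets in 6 ranges of signal. Of the other probe sets 2 of 21 bright and 11 of 18 dim ones lie above 0, on the deposited scale; the points of CYCS, COX7B and COX4I1 above 1 are dim probe sets.

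The rest of the respiratory machinery gives the setting for these values. Complex I, the entry point for electrons from NADH, had 28 of 33 measured subunits lower, 12 of them by 0.32 or more (36.4%), with a median log2 difference of -0.25. The median of complex V was the same. Mitochondrial ribosomal proteins, also encoded in the nucleus, had a median of -0.21 over 75 genes, 57 of them lower. The carriers and channels that move ADP, ATP and phosphate were lower in 6 of 6 genes, with a median of -0.21, from -0.42 for the ADP/ATP carrier SLC25A4 and -0.32 for SLC25A5 to -0.01 for the channel VDAC3. Scaled to the hybridisation spike-ins, these medians were -0.01 for complex I with 17 of 33 lower, 0.04 for the mitochondrial ribosomal proteins and 0.03 for the carriers, all under the 0.18 of all genes.

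The subunits that the mitochondrial genome encodes did not share the lower values. Of 7 with a probe set of their own 5 were higher, with a median log2 difference of 0.05 (0.30 on the spike-in scale). MT-CO1, the catalytic subunit of complex IV, had 40525 in monolayer and 56103 in spheroids (log2 difference 0.47), and MT-CO2 had 49978 and 53914 (0.11). MT-CO3 went the other way with 8010.4 and 6325 (-0.34), and MT-ATP6 of complex V was at 29606 and 29683, a log2 difference of 0.00. The nuclear-encoded genes of complex IV had a median of -0.29 beside these. Mitochondrial transcripts on an array primed at the poly(A) tail are measured by few probe sets, and the difference between both genomes was not tested.

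Assembly factors of complexes III, IV and V were more spread than the subunits they install. The SD of their log2 differences was 0.53, 0.46 and 0.34, against 0.30, 0.29 and 0.19 for the subunits. For complex II the values were alike, at 0.39 and 0.38. All measured genes had an SD of 0.51, and bright genes varied less, so the part of signal strength in this spread was not tested. On the spike-in scale the medians of the factors for complexes IV and V were above 0, at 0.05 and 0.07, but under the 0.18 of all genes. Those for complexes II and III were -0.09 and 0.26. For complex II 3 of 4 were lower by 0.32 or more, with SDHAF4 at -0.78. For complex III the median over 9 factors was 0.01, from -0.86 for UQCC6 to 0.70 for UQCC2 and 0.67 for LYRM7. UQCC2 had only 66.6 in monolayer and 108 in spheroids. Its monolayer signal was just over the floor, so its place at the top of the range is uncertain. LYRM7 was well above the floor, with 1461 and 2329. For complex IV the median over 28 was -0.19, with 12 lower and 6 higher by 0.32 or more. COA8 had 1710.1 and 722, 2.37-fold lower, whereas COX20, a chaperone of the MT-CO2 subunit, had 2219 and 3855, a log2 difference of 0.80. For complex V 6 of 7 factors were lower, with a median of -0.17, and ATPAF2, which helps to form the F1 head, was at -0.72.

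Of the transcription factors and coactivators known for respiratory genes 9 of 16 measured were higher, with a median log2 difference of 0.15. The other 7 (43.8%) were lower, against 54.8% of all measured genes. On the spike-in scale 12 of 16 were higher, with a median of 0.4 beside 0.18 for all genes. POLRMT, the RNA polymerase of mitochondria, was at -0.75 (1330 and 791), and PPARGC1B, a coactivator of mitochondrial genes, at -0.71. GABPB1, the partner of the ETS factor GABPA, had 753 in monolayer and 1205 in spheroids (0.68), and TFAM, which packs and transcribes mitochondrial DNA, 2069 and 3271 (0.66). NRF1 itself was at -0.13 and GABPA at 0.25. PPARGC1A and ESRRG were under the floor on both arrays. Of the 6 measured genes that act on respiration at low oxygen 4 were higher and 2 lower, LONP1 at -0.25 and MIR210HG at -0.15. On the spike-in scale, with all genes at 0.18, 1 of the 6 was lower. The median of the 6 was 0.24, with PDK1, which keeps pyruvate out of the citric acid cycle, at 1314 and 2658 (1.02), BNIP3L at 0.49 and HIGD1A at 0.33.

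The medians of the complexes were followed over the deposited scale and 11 alternative settings, which changed the scaling, the floor or the probe set that stood for a gene. Complex II ran from -0.68 to -0.16, complex III from -0.56 to -0.23, complex IV from -0.36 to -0.04 and complex V from -0.33 to 0.00. The -0.68 of complex II is without _x_at probe sets and rests on SDHC and SDHD alone. Each complex lay under the median of all genes in each of these settings. Differences between complexes were not tested.

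**Figure D4:**
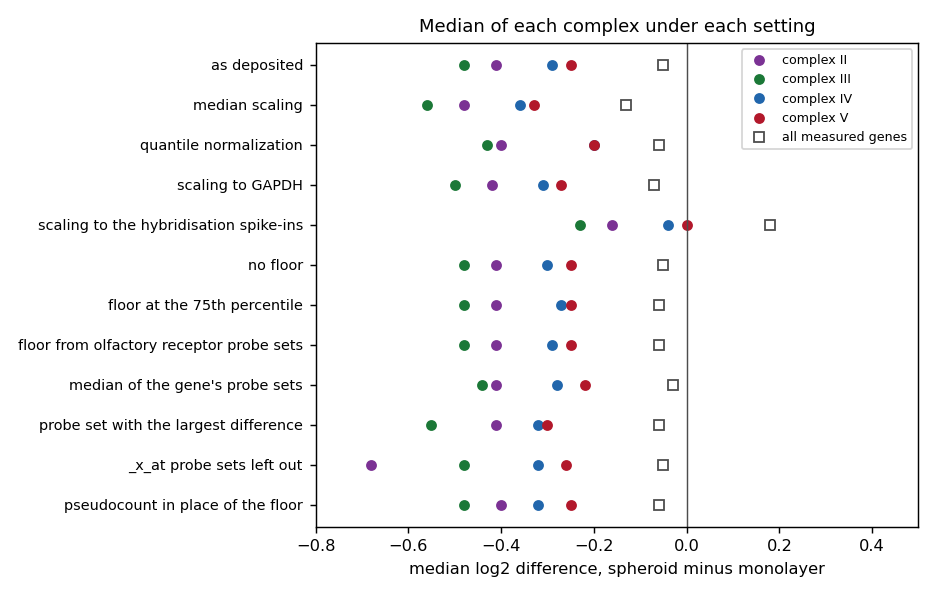
Median log2 difference (spheroid minus monolayer) of complexes II to V and of all measured genes under the deposited scale and 11 alternative settings. Each complex lies left of all genes in every row; under scaling to the hybridisation spike-ins all points move right, and complexes IV and V reach -0.04 and 0.00 with all genes at 0.18.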

How the data were processed

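RNA of HT-29 cells was measured on 1 array of monolayer cells and 1 of spheroids. The authors hybridised it to Affymetrix U133 Plus 2.0 arrays and computed MAS5 signals in Affymetrix Expression Console. These deposited intensities are linear, were scaled by the authors and carry no detection calls. The number of arrays limits the precision, and no test or p-value was computed.

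Differences were computed from the deposited table of 54675 probe sets with pandas 2.3.3 and numpy 2.4.6 (Python 3.11.15), and matplotlib 3.10.9 drew the plots. The platform annotation gives 1 gene for 41097 probe sets and several for 1801, which named no gene, and 11777 are unnamed here. Symbols of 41043 were updated through the RefSeq table of GRCh38.p14. Signals under the 50th percentile (62.7) took that value. Each gene was represented by its probe set of highest mean log2 signal. The 2-fold threshold is that of the methods, and 0.32 on the log2 scale was added for small differences. The members, the gene lists and the set of bright genes were chosen with earlier results of these data known. Named genes are, per complex, up to 4 with the largest difference and the one nearest 0, all of complex II, CYC1 and CYCS, tissue forms, ATP5IF1, genes with a bound or under the floor or with disagreeing probe sets, and up to 3 of each other list. Others complete a structure and were added after seeing their values. The scripts were tested on simulated data. Alternatives were other scalings, floors, thresholds, probe set choices and a pseudocount.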

Additional observations from a re-analysis of the deposited data

How the results depend on the processing

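With 1 array per condition no replicate could be left out and no error between cultures is known, and signals near the floor of 62.7 bound what could be measured. The median of the 42 genes lay between -0.14 (quantile normalization) and -0.28 (median over probe sets) from the median of all genes under the 12 alternatives run for it, and was always lower. Scaling to the hybridisation spike-ins moved the median of the genes to -0.03, of complex II to -0.16, complex III to -0.23, cytochrome c to 0.30, complex IV to -0.04 and complex V to 0.00, with 16 genes higher and 0 at least 2-fold lower. The count of genes at least 2-fold higher, 0 on the deposited scale, was 3 with no floor and 3 with the probe set of largest difference. The count at least 2-fold lower, 1 on the deposited scale, was 4 with no floor, 2 with a pseudocount of 15.9, 0 with the median over probe sets, 0 at a 3-fold threshold and 18 at 0.32 on the log2 scale. Without _x_at probe sets the median of complex II was -0.68, over SDHC and SDHD alone. Cytochrome c was 0.92 as the median of its probe sets and 1.62 with the largest. Median scaling, scaling to GAPDH, floors of 386 (75th percentile) and 89.2 (from 135 olfactory receptor probe sets) and the platform's own symbols moved none of the counts by over 1.5 times and none of the medians by 0.1. The causes were not tested. No paired analysis was possible because each condition has 1 array.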
